A study of Mus musculus with 12 samples.

Results

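The genes of the tumour necrosis factor (TNF) ligand and receptor superfamilies were examined for open chromatin at their promoters and in the DNA around them. The set held 43 of the 21755 protein-coding genes on the autosomes and the X chromosome in GENCODE release M21, with 16 ligands and 27 receptors, and was chosen by family membership. For each gene a promoter was scored by any peak whose midpoint lay within 1 kb of the start site, and distal peaks were collected within 25 kb of the gene body. The study asked how the dose of Notch signal and the state of chromatin together set which genes respond as progenitors enter the T lineage.

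The assay was DNase-seq, in which nuclei are treated with DNase I and the sites it cuts most are called as peaks (DNase I hypersensitive sites, DHSs). All 12 libraries derive from C57BL/6J mouse marrow, whose age the sources do not give. LSK cells (3 libraries) are lineage-negative stem and progenitor cells with high SCA-1 and KIT, taken fresh. The other libraries came from LSK cells cultured in 4GF, a mixture of SCF, FLT-3 ligand, IL-6 and IL-11. DN1 cells (2 libraries, KIT++CD44+CD25-) came from culture on immobilized Delta1, a Notch ligand. DN2a (2 libraries, KIT++CD44+CD25+) and DN2b cells (2 libraries, KIT+CD44loCD25+) came from Delta1 culture with IL-7 added, so that stage and IL-7 cannot be told apart between DN1 and DN2. IgG cells (3 libraries) were cultured on human IgG1 with no Notch ligand and stand as the control for culture. Tests of Delta1 culture set all DN libraries against the LSK and IgG libraries together. Delta1 cannot be told apart from culture, IL-7 or sorted stage in those tests. Per the methods, the DN stages were harvested in turn from the same inductions of separate LSK isolates, but the labels do not tie libraries to isolates, so each test treated libraries as independent. The groups are cells grown outside the animal, and no thymocytes were measured here.

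TNF superfamily ligands are mostly membrane proteins that act as trimers on neighbouring cells. Their receptors carry cysteine-rich repeats outside the cell, and signal inside it through death domains and adaptors such as FADD, or through TRAF proteins to NF-kappaB. In the thymus, RANK ligand (Tnfsf11) and lymphotoxin from developing T cells act on the epithelium of the medulla, CD27 is a receptor of the T lineage, and BAFF (Tnfsf13b) and APRIL (Tnfsf13) are survival factors for B cells that myeloid cells produce.

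Each library was a list of 150 bp peaks with a score of unstated meaning, so a promoter was given the percentile of its highest peak among all peaks of its own library, and 0 where it had no peak. A percentile is therefore a rank within a library and not an amount. Read depth is unknown. List length on the autosomes and X ran from 32952 to 111582 peaks, with the shortest 3 lists all IgG and the longest DN2b replicate 2. The absence of a peak means less in the shorter lists, so the main counts are given again at equal list lengths, where every library kept its 32952 highest-scoring peaks. Percentiles of peaks that were present also differed with list length. The median over open coding promoters averaged 78.8 in IgG and 85.6 to 88.6 in the other groups. At equal lengths it was 77.5 to 79.1 in all groups. Deposited percentiles are thus not fully comparable between groups. Of 10 T lineage marker promoters, 1 to 2 had a peak in the LSK libraries, 4 and 4 in DN1, 7 and 7 in DN2a, 9 and 10 in DN2b and 0 in each IgG library. Of 10 myeloid marker promoters, 5 to 6 had a peak in IgG and 3 to 4 in the other libraries. As the libraries are bulk, fewer cells with an open site and a weaker site in each cell cannot be told apart. Of 8 B lineage marker promoters, 1 to 3 had a peak in each library, with Vpreb1 open in all 12, Ebf1 in 10, Blnk in 6 and Igll1 in 1, and the rest in none, among them Cd79a, Cd79b and Pax5. Of 8 NK and dendritic cell markers, 0 to 3 had a peak in LSK, 3 to 5 with Delta1 and 1 in each IgG library. Of 8 mast cell, erythroid and megakaryocyte markers, 4 had a peak in each LSK library, 2 to 5 with Delta1 and 0 to 1 in IgG. Of 10 stem and progenitor markers, 5 to 6 had a peak in LSK, 5 to 7 with Delta1 and 2 to 4 in IgG.

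Promoters of the superfamily were mostly open in some libraries and not others. A peak was present in all 12 libraries at 9 promoters, in some at 26 and in none at 8. Over all coding promoters, 36.2% were open in every library and 37.5% in none, against 20.9% and 18.6% of the superfamily. The 9 were Tnf and Tnfsf14 among the ligands, and Fas, Ltbr, Relt, Tnfrsf9, Tnfrsf12a, Tnfrsf21 and Tnfrsf23 among the receptors. The 8 without a peak were the ligands Fasl, Cd70 and Tnfsf18 and the receptors Tnfrsf4, Tnfrsf11b, Tnfrsf13b, Tnfrsf17 and Tnfrsf25. At equal list lengths 7 were open in every library, 24 in some and 12 in none. Of all coding promoters, 7883 were open in every library, 5723 in some and 8149 in none as deposited. At equal lengths these counts were 7487, 4035 and 10233. The superfamily and all coding promoters thus both had fewer promoters open in every library and more open in none at equal lengths.

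The number of open promoters out of 43 was 22, 22 and 24 in LSK (mean 22.7 ± 1.15, SD, n = 3), 26 and 22 in DN1, 25 and 20 in DN2a, 25 and 31 in DN2b and 18, 17 and 19 in IgG. The IgG libraries, with the shortest lists, had the fewest, and DN2b replicate 2, with the longest list, the most. At equal list lengths the order changed, with 21 and 22 open promoters in the DN2b libraries and 13 to 18 in the other 10. All coding promoters gave no such step for DN2b at equal lengths, with 9699 and 9668 open in DN2b and 8903 to 10027 elsewhere. No test was made of these totals, since the set was chosen with results of these data known.

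**Figure D1:**
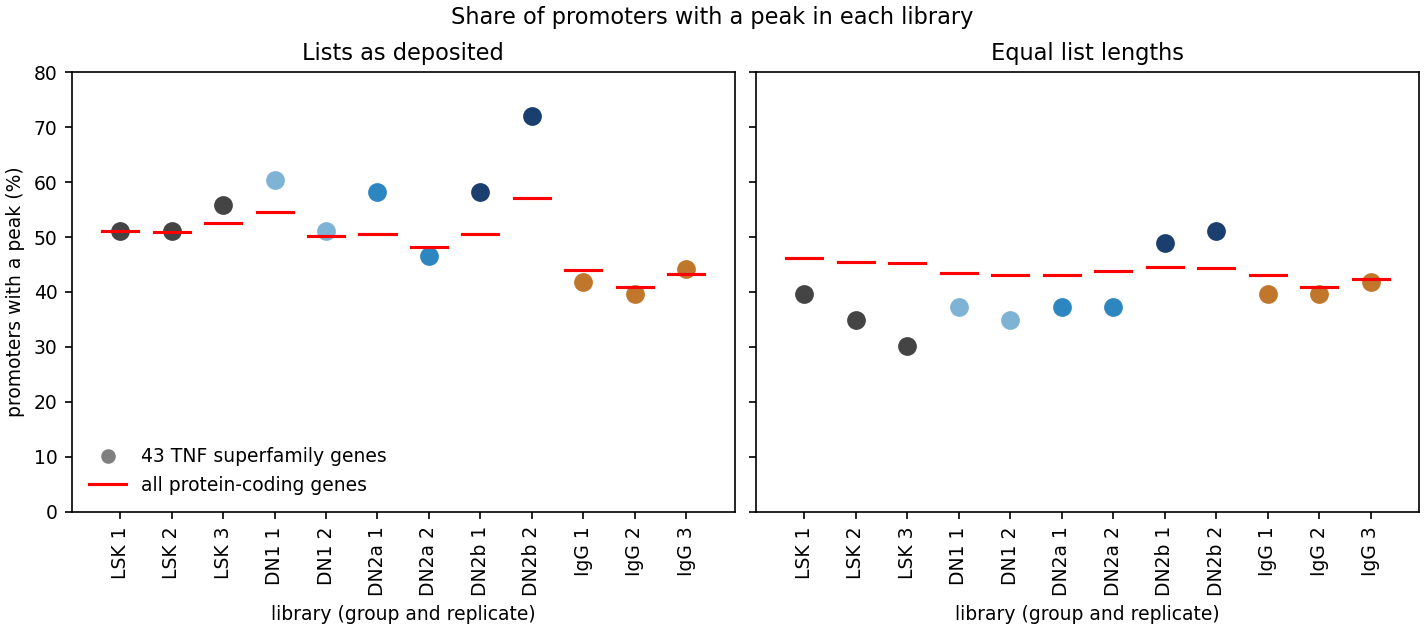
Share of promoters with a peak (%, vertical axis) in each of the 12 libraries (horizontal axis), for the lists as deposited and at equal list lengths. Points are the 43 TNF superfamily genes, coloured by group, and red bars are all 21755 protein-coding genes. At equal lengths the DN2b points (21 and 22 of 43) lie above the red bars and the other 10 points lie below them.

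Sequence around the start sites of the superfamily held few CpG. The observed/expected CpG ratio in 2 kb of GRCm38 around the start had a median of 0.319 over the 43 genes and 0.478 over all coding genes. By class, the 9 superfamily promoters open in every library had a median ratio of 0.421, against 0.653 for the 7883 such promoters of all genes. The 26 open in some libraries had a median of 0.318, against 0.499, and the 8 open in none a median of 0.290, against 0.193. These medians are descriptions and were not tested.

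**Figure D2:**
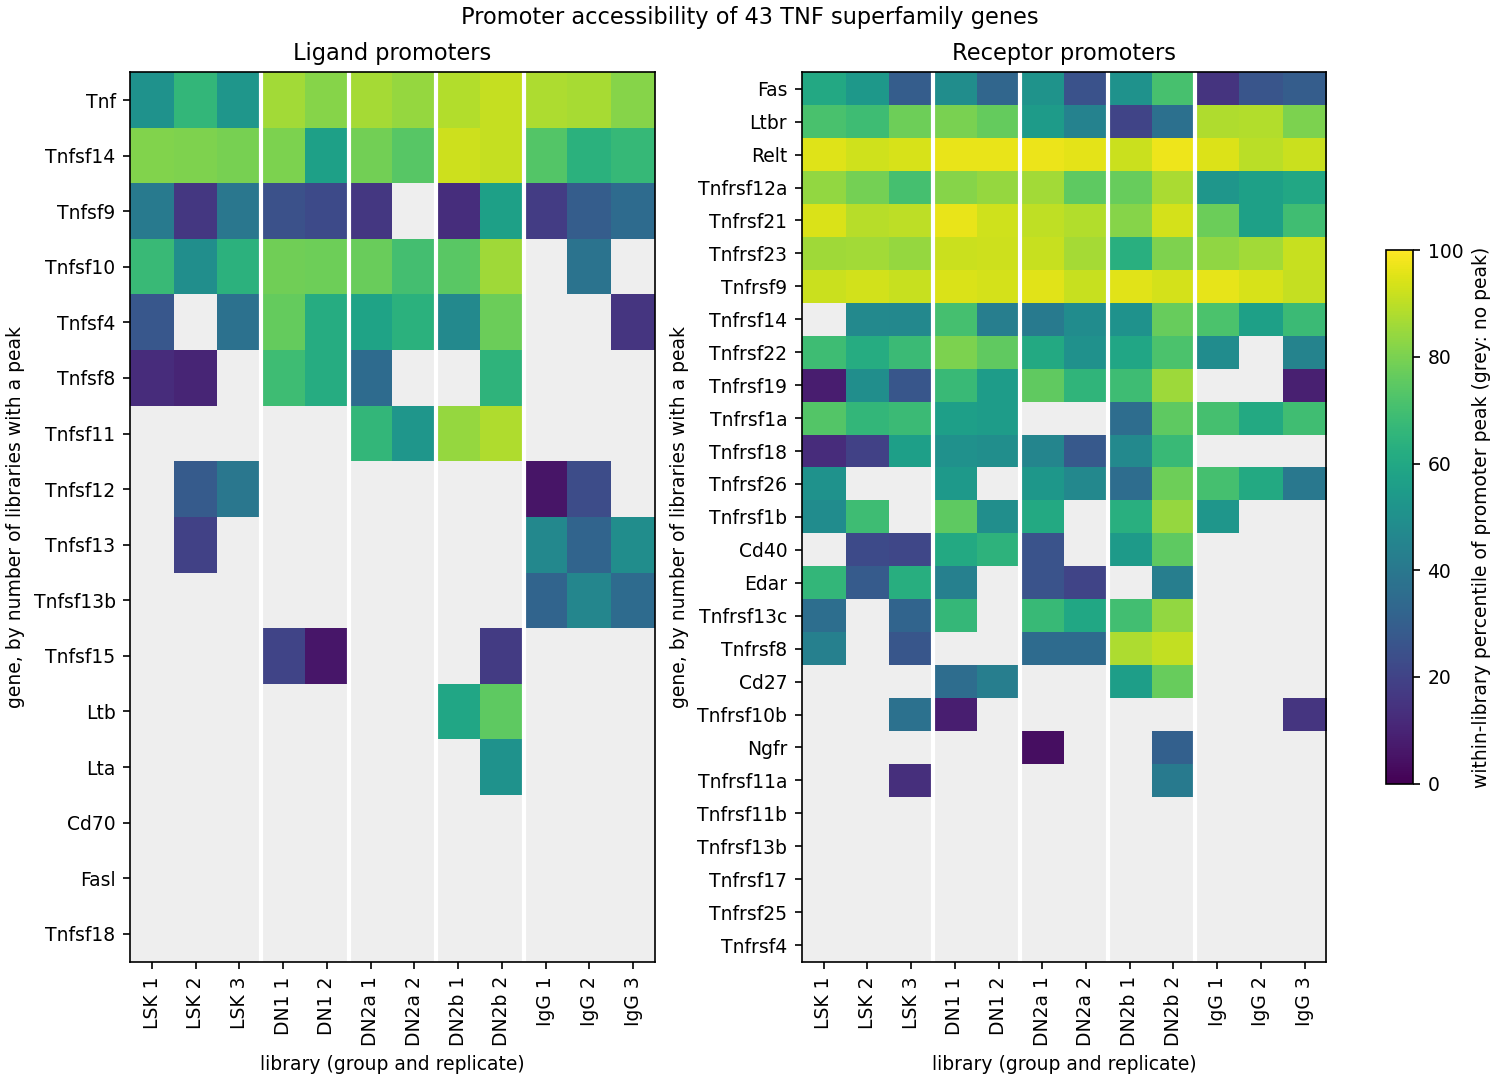
Within-library percentile (colour, 0 to 100) of the promoter peak of each ligand (left) and receptor (right) in each library, with grey for no peak and genes ordered by the number of libraries with a peak. Tnfsf11 is coloured in the 4 DN2 libraries alone, Ltb in the 2 DN2b libraries alone and Tnfsf13b in the 3 IgG libraries alone.

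Differences between the 5 groups were tested at the 34 promoters that had a peak in 2 or more libraries, by an exact permutation test of eta squared, the part of the variance that lies between groups, with Benjamini-Hochberg adjustment over all 12732 such coding promoters. Accessibility differed at 11 of the 34, or 32.4%, against 23.1% of all promoters tested. They were the ligands Tnf, Tnfsf4, Tnfsf11, Tnfsf13 and Tnfsf13b and the receptors Tnfrsf8, Tnfrsf19, Tnfrsf23, Cd27, Cd40 and Ltbr. At equal list lengths 6 of 29 passed, against 9.35% of all promoters, namely Tnfsf11, Tnfrsf19 and Ltbr again, with Tnfsf14, Tnfrsf1a and Tnfrsf13c. Of the 12 fits that each left out 1 library, Ltbr passed in 12, Tnfsf11 in 6, Cd27 in 4, Tnfsf13b in 3, Tnfrsf8 and Tnfrsf19 in 2 each, Tnfsf4, Tnfsf13, Tnfrsf23 and Cd40 in 1 each and Tnf in 0. A peak in every library of some group and in none of another was found at 13 of the 43 promoters, or 30.2%, against 10.5% of all coding promoters.

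The RANK ligand gene Tnfsf11 (chr14:78277445-78308043, minus strand) was open in DN2 cells alone. Its promoter percentile was 66.1 and 52.5 in DN2a, 84.1 and 88.2 in DN2b, and 0 in all 8 LSK, DN1 and IgG libraries. The 2 sets of libraries did not overlap, and at equal list lengths the same 4 libraries held the peak, at 29.6 and 16.9 in DN2a and 70.4 and 60.0 in DN2b. The 5 groups differed (eta squared 0.993, adjusted p = 0.0289 in the exact permutation test, 0.0328 at equal lengths). RANK, its receptor (Tnfrsf11a), had a promoter peak in LSK replicate 3 (percentile 13.3) and DN2b replicate 2 (41.4) and nowhere else, and the decoy receptor osteoprotegerin (Tnfrsf11b) had none.

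The peak of Tnfsf11 lay just outside the gene, centred 89 to 109 bases before its start. It is shown on the minus strand of GRCm38 with each CpG in capitals, as the promoter that was open in DN2 cells alone, at chr14:78308057-78308206.

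Tnfsf11 promoter: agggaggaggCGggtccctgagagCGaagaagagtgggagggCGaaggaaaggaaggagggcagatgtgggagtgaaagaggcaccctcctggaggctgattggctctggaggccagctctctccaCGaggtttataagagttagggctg

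Tnf and the lymphotoxin genes Lta and Ltb lie close together on chromosome 17 and were open in different libraries. Tnf, the founding cytokine of the family, had a peak in all 12 libraries, at percentiles 50.8, 66.4 and 52.7 in LSK, 86.3 and 81.9 in DN1, 86.5 and 84.1 in DN2a, 88.4 and 91.4 in DN2b and 87.6, 86.8 and 81.9 in IgG. The 3 LSK values lay below all others (adjusted p = 0.0417, exact permutation test), and the LSK values were also the lowest at equal lengths, where the adjusted p was 0.0574. Tnf passed in 0 of the 12 fits that left out 1 library (0.0620 to 0.0891). Ltb (lymphotoxin beta, chr17:35194439-35196320, plus strand) had a peak in DN2b alone, at percentiles 59.0 and 75.0, and at 23.6 and 15.3 at equal lengths. With 2 libraries open of 12, its adjusted p was 0.109 (exact permutation test). Lta (lymphotoxin alpha) was open in DN2b replicate 2 alone, at percentile 51.0, and lost that peak at equal lengths.

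The receptor for lymphotoxin, Ltbr (chr6:125306571-125313885, minus strand), had its lowest percentiles in DN2 cells. Its promoter percentile was 71.3, 68.8 and 77.9 in LSK, 79.8 and 76.2 in DN1, 54.9 and 44.5 in DN2a, 20.4 and 36.9 in DN2b and 88.1, 88.5 and 80.3 in IgG. All 4 DN2 libraries lay below the other 8, and both DN2b libraries below both DN2a libraries. The 5 groups differed (eta squared 0.946, adjusted p = 0.00919 in the exact permutation test, 0.0107 at equal lengths). At equal lengths its peak was at percentiles 6.24 and 2.76 in DN2a, was missing from both DN2b libraries and stood between 40.8 and 88.5 in the other 8.

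The promoters of Ltb and Ltbr, a ligand with a peak in DN2b alone and its receptor with the lowest percentiles there, are shown 5' to 3' on the strand of their gene, with CpG in capitals and the bases of the transcript left out. They span chr17:35194317-35194438 and chr6:125313886-125314006 and hold 4 and 11 CpG.

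Ltb promoter: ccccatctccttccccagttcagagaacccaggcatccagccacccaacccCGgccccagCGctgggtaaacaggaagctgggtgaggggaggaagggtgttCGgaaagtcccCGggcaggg

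Ltbr promoter: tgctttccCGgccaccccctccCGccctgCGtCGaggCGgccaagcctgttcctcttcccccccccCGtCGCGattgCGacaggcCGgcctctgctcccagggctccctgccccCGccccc

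Among the other ligands, Tnfsf4 and Tnfsf10 were higher in Delta1 culture than in LSK and IgG together. Tnfsf4 (OX40 ligand) stood at 27.3, 0 and 37.2 in LSK, 76.5 and 61.8 in DN1, 58.0 and 63.9 in DN2a, 47.0 and 77.4 in DN2b and 0, 0 and 15.6 in IgG. Across libraries its top peak was centred at -297 to 863 bases from the start, so its percentiles may belong to different sites. Over the 5 groups its adjusted p was 0.0465 as deposited and 0.160 at equal lengths (exact permutation test). Tnfsf10 (TRAIL, a death ligand) stood at 67.7, 49.3 and 64.3 in LSK, 78.5 and 77.8 in DN1, 77.0 and 70.0 in DN2a, 74.4 and 85.9 in DN2b and 0, 38.2 and 0 in IgG. In both genes all 6 Delta1-cultured libraries lay above all 6 others. Those others were 3 fresh LSK and 3 IgG libraries, and the 4 DN2 libraries also had IL-7. The part of Delta1 alone in these differences was not tested. For Tnfsf10 all 3 LSK values also lay above all 3 IgG values, while for Tnfsf4 the LSK and IgG values overlapped. Of the 34 promoters tested, Tnfsf4, Tnfsf10 and the receptor Tnfrsf19 were higher with Delta1, or 8.82%, against 13.7% of all promoters, and 0 were lower, against 0.628%. Each of the 3 had the smallest p the 924 divisions of the libraries allow (0.00216) and an adjusted p of 0.0255 (exact permutation test). The difference of means, Delta1 minus no Delta1, was 50.7 percentile points for Tnfsf4, 40.7 for Tnfsf10 and 54.2 for Tnfrsf19. At equal lengths it was 20.2, 26.8 and 29.3, and the adjusted p rose to 0.0513, 0.0731 and 0.102, so that none of the 3 passed. At equal lengths 0 of 29 were thus higher with Delta1, against 3.00% of all promoters, and 1 was lower (Tnfrsf1a), against 3.07%. Without any 1 of the 6 Delta1-cultured libraries, 0 coding promoters passed. Markers of several cell types were higher with Delta1 in the same test (adjusted p = 0.0255 each, exact permutation test). They were Klrd1 (74.1 percentile points) and Klrb1c (65.9) of NK cells, Siglech (53.9) of plasmacytoid dendritic cells, Cpa3 (54.0) of mast cells, and Bcl11b (77.0), Lck (61.7), Rag1 (59.2) and Tcf7 (55.8) of the T lineage. At equal lengths Klrd1 and Bcl11b passed again (0.0357 each), and Klrb1c and Cpa3 (0.0513 each), Lck (0.0943) and Siglech, Rag1 and Tcf7 (0.204 each) did not (exact permutation test). Ncr1, Xcr1, Cd209a, Fcer1a and Ms4a2 had a promoter peak in 0 of 12 libraries. Il2ra, Cd3e, Cd3g, Cd3d, Thy1 and Eomes did not pass in this test. Of the 5 myeloid markers tested, Cebpa alone passed as lower with Delta1 (difference -14.9, adjusted p = 0.0454, and -38.7, 0.0357, at equal lengths, exact permutation test). The part of such cells in the differences of Tnfsf4, Tnfsf10 and Tnfrsf19 was not tested.

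The APRIL and BAFF genes were open in the culture without Notch ligand. Tnfsf13b (BAFF, chr8:10006467-10039072) had a peak in IgG alone, at percentiles 32.3, 45.9 and 34.9 (adjusted p = 0.0442, exact permutation test), and kept it in all 3 libraries at equal lengths with an adjusted p of 0.0586. It entered the test only through the group where it was high, and did not pass with no minimum number of libraries. Tnfsf13 (APRIL) stood at 46.7, 32.4 and 48.9 in IgG and at 19.3 in LSK replicate 2, with no peak in the other 8 libraries (adjusted p = 0.0488, exact permutation test, and 0.0586 at equal lengths). With no minimum number of libraries Tnfsf13 did not pass either. The highest Tnfsf13 peak, in IgG replicate 3, also lies in an intron of the read-through gene Tnfsfm13. Across libraries the top peak of Tnfsf13 was centred at -108 to 412 bases from the start, so its percentiles may belong to different sites. Tnfsf13b and Tnfsf13 thus had peaks in the shortest lists. The IgG libraries also had the most open myeloid marker promoters, 5 to 6 of 10, with Cebpa highest there (94.7, 96.5 and 95.1), Csf1r, Mpo and Elane open in 1 IgG library each and Fcgr3 and Ly86 in none. The part of myeloid cells in these peaks was not tested. Of the receptors for these ligands, Tnfrsf13c (BAFF receptor) had no peak in IgG and stood at 67.3 and 59.5 in DN2a, 69.9 and 83.8 in DN2b, 66.6 and 0 in DN1 and 36.0, 0 and 32.1 in LSK. Its adjusted p was 0.0866 as deposited and 0.0194 at equal lengths (exact permutation test). Tnfrsf13b (TACI) and Tnfrsf17 (BCMA) had no promoter peak.

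The remaining ligands did not pass over the 5 groups as deposited. Tnfsf14 (LIGHT) had a peak in every library, between 56.9 in DN1 replicate 2 and 92.3 in DN2b replicate 1, and passed at equal lengths alone (adjusted p = 0.0155, exact permutation test), where DN1 was lowest at 42.5 and 9.19. Tnfsf8 (CD30 ligand) stood at 68.8 and 61.8 in DN1 and at 34.9 or below in LSK, DN2a and DN2b replicate 1, with 65.0 in DN2b replicate 2 and 0 in IgG (adjusted p = 0.144, exact permutation test). Tnfsf15 had peaks at 20.5 and 6.20 in DN1 and at 17.3 in DN2b replicate 2, all lost at equal lengths. Tnfsf9, the ligand of Tnfrsf9, had a peak in every library but DN2a replicate 2, at 41.2 or below except in DN2b replicate 2 (adjusted p = 0.539, exact permutation test). Tnfsf12 (TWEAK) had a peak in 2 LSK and 2 IgG libraries, between 5.63 and 39.6, and its start lies 249 bp from that of the read-through gene Tnfsfm13, so its peaks cannot be given to either gene.

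**Figure D3:**
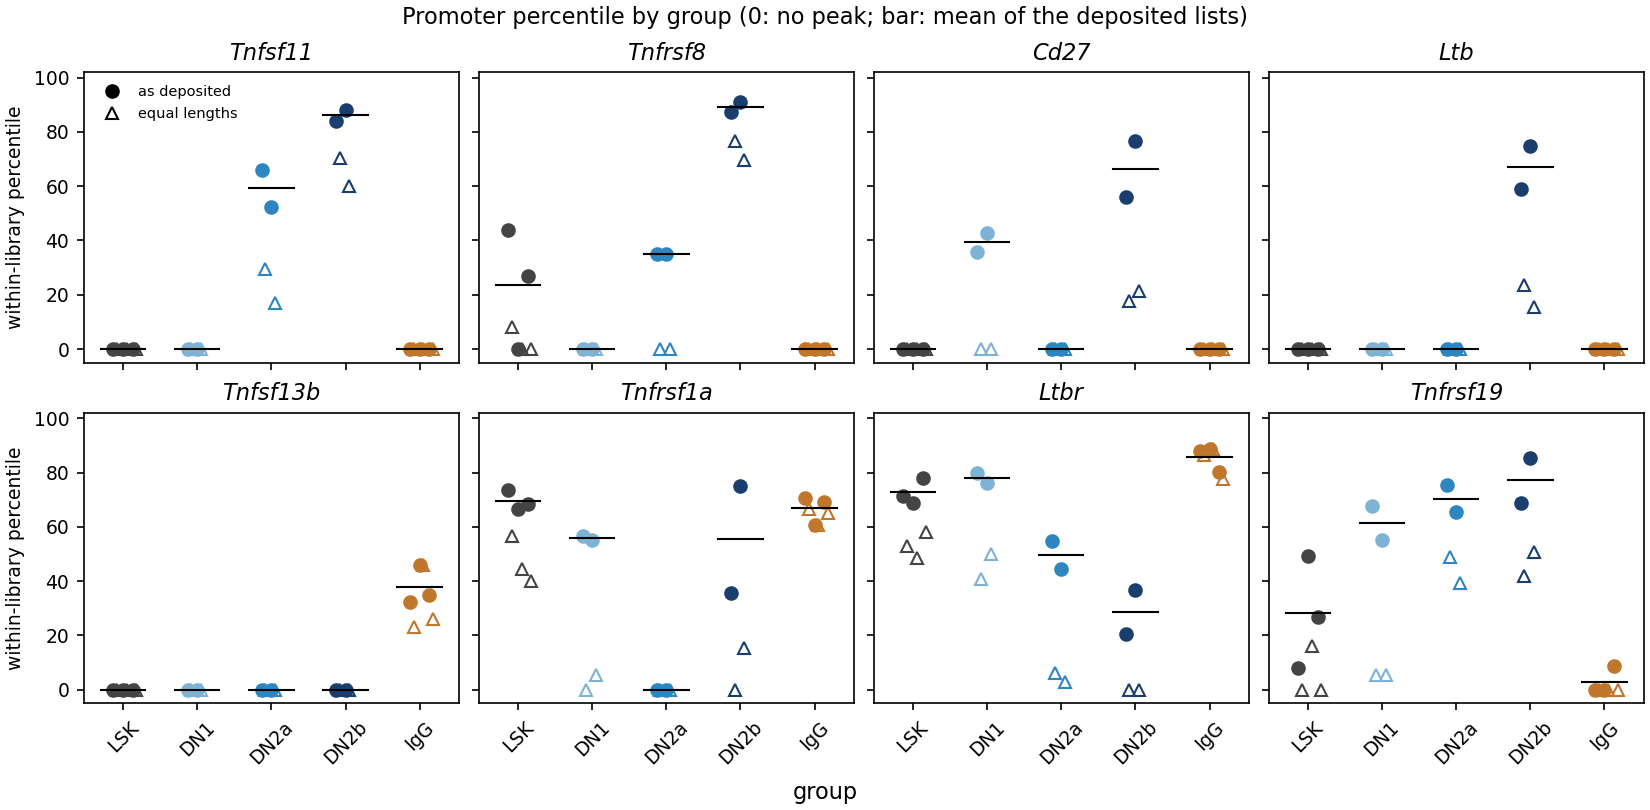
Within-library percentile of the promoter peak (vertical axis, 0 for no peak) by group (horizontal axis) for 8 genes. Filled circles are libraries as deposited, open triangles the same libraries at equal list lengths, and bars the mean of the deposited values. Tnfsf11 and Tnfrsf8 are highest in DN2b, Ltbr is lowest there (20.4 and 36.9), and Tnfsf13b is above 0 in IgG alone.

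The receptor genes Tnfrsf8 and Cd27 had their highest percentiles in DN2b. Tnfrsf8 (CD30, chr4:145267137-145315164, minus strand) stood at 87.5 and 91.0 in DN2b, 34.9 and 35.1 in DN2a, 43.7, 0 and 26.9 in LSK, and 0 in both DN1 and all 3 IgG libraries (adjusted p = 0.0359, exact permutation test). At equal lengths both DN2b libraries kept the peak, at 76.6 and 69.6, with LSK replicate 1 at 8.02 and no other, and the adjusted p was 0.140. Cd27 was open at 55.9 and 76.8 in DN2b and at 35.7 and 42.9 in DN1, with no peak in the other 8 libraries, DN2a included (adjusted p = 0.0289, exact permutation test). At equal lengths the DN1 peaks were lost and the DN2b peaks stood at 17.8 and 21.5, with an adjusted p of 0.140. The highest Cd27 peak, in DN2b replicate 2, also lies in an intron of Vamp1. Across libraries the top peak was centred at -702 to -2 bases from the start, so these percentiles may belong to different sites. Cd40 stood at 60.7 and 64.6 in DN1, 54.3 and 75.0 in DN2b, 25.5 and 0 in DN2a, 0, 22.4 and 21.3 in LSK and 0 in IgG (adjusted p = 0.0352, exact permutation test, and 0.231 at equal lengths).

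The Tnfrsf8 promoter, the receptor promoter with the highest DN2b percentiles among those closed in DN1 and IgG, is shown on the minus strand at chr4:145315177-145315326, outside the gene, with its 6 CpG in capitals.

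Tnfrsf8 promoter: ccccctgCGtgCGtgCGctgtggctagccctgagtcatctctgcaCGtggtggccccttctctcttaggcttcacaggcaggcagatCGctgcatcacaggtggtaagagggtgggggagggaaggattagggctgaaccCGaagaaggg

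The main TNF receptor, Tnfrsf1a (chr6:125349362-125362484, plus strand), had no peak in DN2a. It stood at 73.4, 66.4 and 68.3 in LSK, 56.6 and 55.1 in DN1, 0 and 0 in DN2a, 35.7 and 75.0 in DN2b and 70.7, 60.6 and 69.3 in IgG. Its adjusted p over the 5 groups was 0.0722 as deposited and 0.0167 at equal lengths (exact permutation test), where DN1 and DN2b also lay at 15.3 or below. At equal lengths it was also lower in Delta1 culture, by 52.1 percentile points (difference -52.1, adjusted p = 0.0357, exact permutation test). Of the 5 myeloid markers tested at equal lengths, 1 also passed as lower with Delta1 (Cebpa). The part of myeloid cells in the values of Tnfrsf1a and Ltbr was not tested. The second TNF receptor, Tnfrsf1b, had a peak in 8 libraries, up to 84.2 in DN2b replicate 2, and did not separate the groups (adjusted p = 0.453, exact permutation test). Tnfrsf19 (TROY) stood at 8.11, 49.3 and 26.9 in LSK, 67.7 and 55.1 in DN1, 75.4 and 65.3 in DN2a, 68.9 and 85.4 in DN2b and 0, 0 and 8.77 in IgG, and passed over the 5 groups as deposited (adjusted p = 0.0417, exact permutation test) and at equal lengths (0.0488).

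The 3 highest medians over the 12 libraries were those of receptors open in every library, Relt at percentile 94.9, Tnfrsf9 at 93.6 and Tnfrsf21 at 89.7. Fas, the death receptor that Fasl binds, was also open in every library but had a median of 41.0. Relt ran from 89.6 to 97.5 and Tnfrsf9 (4-1BB) from 91.4 to 96.1, with no difference between groups that passed (adjusted p = 0.281 and 0.686, exact permutation test). The start of Tnfrsf9 lies 125 bp from that of Park7, and the peak cannot be given to either gene. Tnfrsf21 stood at 77.7, 56.9 and 69.3 in IgG and at 81.7 to 96.8 in the other 9 libraries (adjusted p = 0.0944, exact permutation test). Tnfrsf23, a decoy receptor for TRAIL, passed (adjusted p = 0.0428, exact permutation test), with DN2b replicate 1 (63.1) and DN2b replicate 2 (80.6) lowest and the other 10 libraries between 83.5 and 92.5. It missed the threshold at equal lengths (0.0501), where DN2b stood at 31.2 and 34.2 and the rest at 69.9 to 90.6.

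Tnfrsf18 (GITR) and Edar were also open in every library of some group and in none of IgG. Tnfrsf18 ran from 12.6 to 67.7 in the 9 other libraries (adjusted p = 0.0823, exact permutation test), but kept 2 peaks at equal lengths. Edar was open at 66.4, 28.6 and 62.8 in LSK and in 4 of the 6 Delta1 libraries at 43.6 or below (adjusted p = 0.197, exact permutation test). Ngfr, the neurotrophin receptor of the family, had a peak in 2 libraries at 30.6 or below. The other receptors did not pass either as deposited or at equal lengths.

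The 4 DN2 libraries were set against the other 8 for each promoter. Adjusted over all promoters, 0 of 34 passed, against 0% of the 12732. The smallest p that the 495 divisions allow is 0.00202, which gave an adjusted p of 0.153 in the exact permutation test. No promoter could thus pass, and the 0 does not show that DN2 cells were like the rest. At an unadjusted p under 0.05 there were 6 in the superfamily and 1417 in all. Tnfsf11 (72.8 percentile points), Tnfrsf8 (53.3), Tnfrsf13c (53.3) and Tnfrsf19 (46.8) had higher means in DN2, and Ltbr (-39.7) and Tnfrsf1a (-37.4) lower ones, each difference being DN2 minus the rest. Tnfsf11 and Ltbr reached the smallest p the exact permutation test allows (adjusted p = 0.153). With limma on the same percentiles both passed.

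Genes that carry the signal of these receptors were mostly open throughout. In a list of 38 adaptors, kinases, ubiquitin ligases and NF-kappaB proteins, 30 promoters were open in every library, against 36.2% of all coding promoters, Traf1 was open in DN2b replicate 1 alone and Xiap in none. Of 36 tested, 6 differed between the 5 groups (Traf6, Fadd, Ripk1, Relb, Tnip1 and Rbck1), against 23.1% of all promoters. With Delta1 culture 5 were higher, a share close to the 13.7% of all promoters. Of the NK, mast and T lineage markers, Klrd1, Klrb1c, Cpa3, Bcl11b, Lck, Rag1 and Tcf7 were also higher with Delta1. Klrd1 and Bcl11b alone passed again at equal lengths. Ncr1, Fcer1a and Ms4a2 had no promoter peak in any library, and Il2ra and Cd3e did not pass (adjusted p = 0.157 each, exact permutation test). The part of such cells in these values was not tested. Fadd, the adaptor of the death domain, stood at 73.4, 66.9 and 74.5 in IgG, 79.9 to 82.3 in LSK and 85.5 to 93.7 with Delta1. The kinase gene Ripk1 stood at 66.6, 58.8 and 54.6 in IgG, 79.9 to 84.8 in LSK and 86.0 to 94.3 with Delta1. Cflar, which blocks caspase activation at the receptor, stood at 55.6, 0 and 56.4 in IgG, 63.6 to 82.3 in LSK and 85.3 to 93.0 with Delta1. The ubiquitin ligase genes Rbck1 and Rnf31 were higher with Delta1 by 19.7 and 4.46 percentile points. All 5 had an adjusted p of 0.0255 (exact permutation test). At equal lengths Ripk1 and Cflar passed again (0.0357 each), and Fadd (0.0513), Rbck1 (0.0622) and Rnf31 (0.0921) did not. There 2 of 36 were thus higher, against 3.00% of all promoters. Tab1 and Sharpin also passed at equal lengths, in the other direction and against 3.07%, with differences of -20.8 and -8.09 percentile points (0.0357 each, exact permutation test). As deposited their differences were -3.85 and -2.70, and neither passed (adjusted p = 0.385 and 0.0907, exact permutation test). Over the 5 groups 6 of 36 passed at equal lengths as well, against 9.35% of all promoters, but mostly other genes. Ripk1 and Relb passed again, Traf6 (0.0712), Fadd (0.144), Tnip1 (0.0837) and Rbck1 (0.178) did not, and the NF-kappaB genes Rel (0.0160) and Nfkb1 (0.0484), the inhibitor gene Nfkbia (0.0266) and Tab1 (0.0399) were added (exact permutation test). Tnip1, an inhibitor of NF-kappaB, had no peak in LSK or IgG and stood at 82.3 and 87.4 in DN2b, 58.0 and 47.4 in DN1 and 0 and 44.5 in DN2a.

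Distal chromatin near the superfamily was examined in the same way. Peaks of all libraries that overlapped were merged into 170207 DHSs, of which 142185 lay over 1 kb from every coding start site, and 383 of these lay within 25 kb of a superfamily gene. They are numbered here in order of position. Of the 383, 132 lay in the body of a superfamily gene and 61 lay near 2 or more of them, so gene by gene counts overlap. By the annotation, 175 were outside coding genes, 165 in introns alone and 43 touched an exon or UTR. A peak was present in all 12 libraries at 19, or 4.96%, against 3.86% of all distal DHSs. Of the 274 with a peak in 2 or more libraries, 81 differed between the groups, or 29.6%, against 23.1% of the 93541 tested. At equal lengths 63 of 166 differed, against 34.0% of all tested. Without IgG replicate 1, 2 or 3 the 81 became 19, 20 or 22. In each of these fits the share of all distal DHSs that differed also lay below 23.1%. A peak in every library of some group and none of another was found at 151, or 39.4%, against 36.9%. Tnfrsf1b had the most distal DHSs (29), followed by Tnfrsf8 (21) and Relt (18).

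Some distal DHSs were open in a single kind of cell. A peak in all 6 Delta1-cultured libraries and no other was present at 14, or 3.66%, against 2.10% of all distal DHSs. They lay near Fasl, Cd70, Tnfsf9, Tnfsf15, Tnfrsf1a, Tnfrsf1b, Tnfrsf9, Tnfrsf11b, Tnfrsf19, Tnfrsf22, Tnfrsf23, Tnfrsf26 and Cd40. At equal lengths 6 of the 14 still had all 6 peaks, near Fasl, Tnfsf15, Tnfrsf1b, Tnfrsf9 (2) and Tnfrsf1a. DN2b alone held 15 (3.92%, against 1.93%), of which 4 held at equal lengths, and DN2b replicate 2 had the longest list. The 4 DN2 libraries alone held 4 (1.04%, against 0.864%), DN1 alone held 3 (0.783%, against 2.04%), LSK alone held 4 (1.04%, against 0.718%) and IgG alone held 8 (2.09%, against 2.19%). All 9 libraries other than IgG held 14 that IgG lacked (3.66%, against 3.40%), of which 4 kept that pattern at equal lengths. Counted anew at equal lengths, the order of these patterns changed. IgG alone then held 13 (3.39%, against 3.19% of all distal DHSs), DN2 alone 9 (2.35%, against 0.995%), Delta1 culture alone 8 (2.09%, against 0.935%), DN2b alone 4 (1.04%, against 0.781%), LSK alone 3 (0.783%, against 0.895%) and DN1 alone 1 (0.261%, against 0.548%). The 9 libraries other than IgG held 4 (1.04%, against 0.921%). These shares were not tested against each other.

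Of the distal DHSs with a peak in every library of some group and none of another, 12 were named by rule. They had the widest range of group means, at most 2 for each gene. Their patterns and adjusted p-values are thus partly set by the choice. Several of the 12 lay in introns of receptor genes. DHS239 lay in an intron of Tnfrsf1b, 10.6 kb after its start, and stood at 90.1 and 82.5 in DN1, 96.8 and 96.8 in DN2a and 98.8 and 98.4 in DN2b, with no peak in LSK or IgG. DHS268 and DHS269 lay in introns of Tnfrsf9, 6.88 and 9.93 kb after its start and within a long transcript of Camta1. DHS268 stood at 72.5 and 69.5 in DN1, 82.0 and 80.7 in DN2a and 93.5 and 95.2 in DN2b, and DHS269 at 83.1 and 64.6, 93.8 and 93.5, and 97.2 and 97.7. DHS334 lay in an intron of Tnfrsf1a, 6.04 kb after its start, and stood at 76.5 and 63.2 in DN1, 88.1 and 86.6 in DN2a and 93.8 and 94.6 in DN2b. All 4 had no peak in the 6 LSK and IgG libraries, had percentiles that ordered DN1, DN2a and DN2b without overlap, and had an adjusted p of 0.00595 over the 5 groups (exact permutation test). Each kept its 6 peaks at equal lengths. The Tnfrsf9 promoter was open in every library and the Tnfrsf1a promoter had no peak in DN2a, while these intron DHSs were open in all 6 Delta1-cultured libraries.

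The ligand Fasl had no promoter peak in any library, but DHSs on both sides of the gene. DHS40, 16.1 kb before its start, stood at 83.6 and 78.6 in DN1, 92.7 and 84.1 in DN2a and 90.7 and 92.4 in DN2b, with none in LSK or IgG (adjusted p = 0.0120, exact permutation test). DHS34, 9.24 kb after its start and past the gene end, stood between 90.1 and 97.3 in the 6 Delta1 libraries and at 34.5 in LSK replicate 2 (adjusted p = 0.0191, exact permutation test). DHS202, 40.7 kb after the start of Tnfsf15 and past its end, stood at 85.0 and 63.2 in DN1, 95.7 and 86.6 in DN2a and 94.5 and 93.0 in DN2b with none elsewhere (adjusted p = 0.00920, exact permutation test). DHS302 lay between Tnfrsf4 (OX40) and Tnfrsf18, 3.80 kb before the start of Tnfrsf18, and was open in DN2 alone, at 72.7 and 63.9 in DN2a and 82.3 and 91.0 in DN2b, the same 4 libraries at equal lengths. This DHS was chosen after its values were seen.

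Other DHSs were open in progenitors and T lineage cells but not in IgG. DHS315, 14.7 kb after the start of Cd27 and in a UTR of Vamp1, stood at 66.4, 73.2 and 64.3 in LSK, 76.5 and 58.6 in DN1, 90.4 and 91.0 in DN2a and 95.1 and 98.6 in DN2b (adjusted p = 0.00833, exact permutation test). DHS111, in a UTR of Tnfrsf11b, was highest in LSK, at 92.2, 89.3 and 92.1, and stood between 65.6 and 83.2 with Delta1 (adjusted p = 0.00920, exact permutation test). Both kept their 9 libraries at equal lengths. Other DHSs had their highest percentiles in IgG. DHS294, 17.2 kb after the start of Tnfrsf14 (HVEM) and 12.2 kb from that of Fam213b, stood at 92.2, 95.7 and 93.8 in IgG and at 16.1 in DN1 replicate 1 (adjusted p = 0.0409, exact permutation test). DHS181, 20.2 kb before the start of Fas and 14.9 kb from that of Acta2, stood at 89.4, 97.1 and 94.7 in IgG, 48.6, 34.5 and 50.7 in LSK and 45.4 in DN1 replicate 1 (adjusted p = 0.0169, exact permutation test). DHS250, in a UTR of Tnfrsf8, stood at 96.7, 86.2 and 96.7 in IgG, 62.0, 0 and 62.8 in LSK and 45.6 in DN2b replicate 2 (adjusted p = 0.0703, exact permutation test). Among myeloid marker promoters, Cebpa was also highest in IgG (94.7, 96.5 and 95.1). It stood at 83.0 to 89.8 in LSK and 67.7 to 84.2 with Delta1. Itgam was highest in IgG too (84.6, 78.1 and 70.5), and Lyz2 in DN1 replicate 1 (79.8). Mpo, Elane and Csf1r were open in 1 IgG library each, and Fcgr3 and Ly86 in no library. The part of myeloid cells in DHS294, DHS181 and DHS250 was not tested. The distance to a gene is a description, and no DHS was tied to the gene it acts on.

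**Figure D4:**
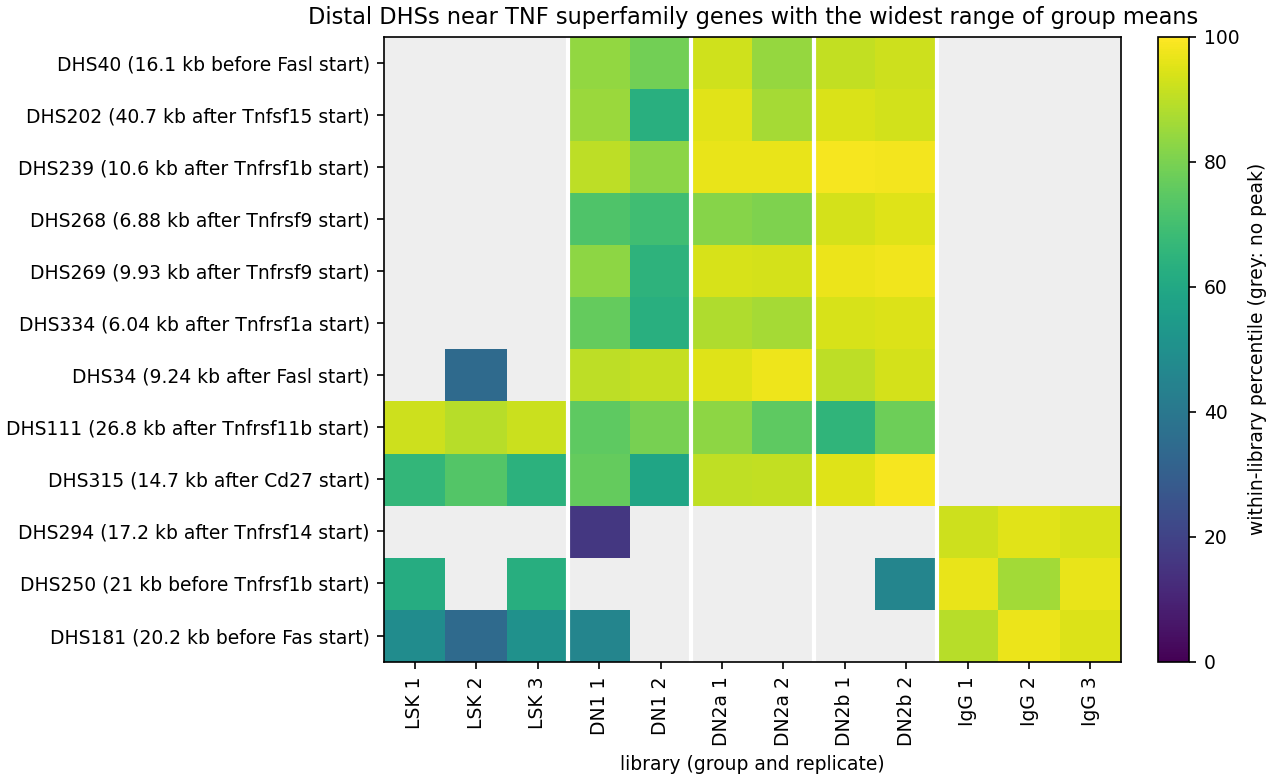
Within-library percentile (colour, 0 to 100, grey for no peak) of the 12 distal DHSs with the widest range of group means, at most 2 for each gene, in each library, with the distance of each from the nearest superfamily start. The 12 were taken among DHSs with a peak in every library of some group and none of another. The upper 6 are open in the 6 Delta1-cultured libraries alone, and the lowest 3 are highest in IgG (86.2 to 97.1).

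The distal windows were searched for the letters of 8 factor motifs on both strands, in 150 bp at the centre of each DHS. The RUNX letters TGTGGT were present in 11 of the 14 Delta1-only DHSs near the superfamily, or 78.6%. They were present in 57.6% of the 2991 Delta1-only distal DHSs of the genome, in 28.7% of the 383 and in 25.9% of all 142185. The letters of RBPJ (TGGGAA), the factor that Notch acts through, were in 1 of the 14 (7.14%), 13.3% of the 2991 and 13.1% of all. In that order of sets, the shares for GATA factors, with the letters AGATAA, were 14.3%, 13.4% and 9.17%, for TCF1 and LEF1 (ACAAAG) 14.3%, 16.1% and 13.1%, for ETS (GGAAGT) 7.14%, 24.6% and 24.3%, for E proteins (CAGCTG) 21.4% and 16.6%, with 17059 of all 142185, for AP-1 (TGANTCA) 7.14%, 6.22% and 8.51%, and for NF-kappaB (GGGNNTTCC) 7.14%, 2.64% and 2.66%. No test was made of these shares, and 14 windows are few. A match of letters is no measure of binding.

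**Figure D5:**
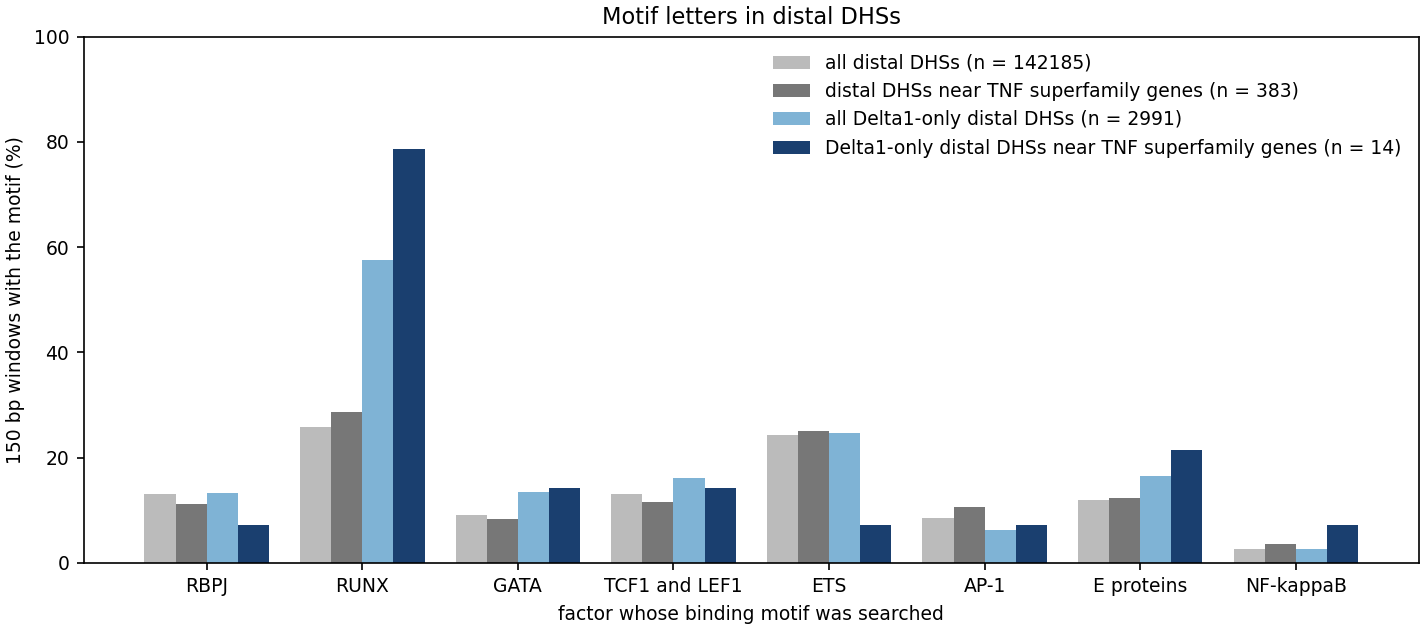
Share of 150 bp windows (%, vertical axis) that hold the letters of each of 8 motifs (horizontal axis), for all distal DHSs, those near the TNF superfamily, all Delta1-only distal DHSs and the 14 Delta1-only DHSs near the superfamily. The RUNX bars stand apart, at 25.9%, 28.7%, 57.6% and 78.6%.

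The central 150 bp of the intron DHSs and of DHS40 are printed because they were open in every Delta1-cultured library and in no other. Each is 5' to 3' on the strand of its gene, with the RUNX letters, read on either strand, in capitals. DHS239 is at chr4:145236177-145236326 and on the minus strand, DHS268 at chr4:150921367-150921516 and DHS269 at chr4:150924417-150924566 on the plus strand, DHS40 at chr1:161804537-161804686 on the minus strand and DHS334 at chr6:125355327-125355476 on the plus strand. DHS268 held the letters 3 times, DHS239, DHS269 and DHS40 once each, and DHS334 not at all.

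DHS239: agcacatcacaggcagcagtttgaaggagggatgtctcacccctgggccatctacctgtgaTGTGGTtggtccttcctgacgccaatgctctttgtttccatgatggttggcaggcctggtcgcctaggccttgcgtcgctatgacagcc

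DHS268: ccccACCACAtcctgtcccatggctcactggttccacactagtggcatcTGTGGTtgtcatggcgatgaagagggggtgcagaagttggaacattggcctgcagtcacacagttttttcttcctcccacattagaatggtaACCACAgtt

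DHS269: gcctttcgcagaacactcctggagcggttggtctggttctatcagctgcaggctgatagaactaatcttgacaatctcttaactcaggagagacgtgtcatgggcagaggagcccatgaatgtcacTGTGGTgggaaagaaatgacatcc

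DHS40: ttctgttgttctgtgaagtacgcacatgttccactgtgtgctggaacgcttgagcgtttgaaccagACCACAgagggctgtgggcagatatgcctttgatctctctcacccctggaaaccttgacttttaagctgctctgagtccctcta

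DHS334: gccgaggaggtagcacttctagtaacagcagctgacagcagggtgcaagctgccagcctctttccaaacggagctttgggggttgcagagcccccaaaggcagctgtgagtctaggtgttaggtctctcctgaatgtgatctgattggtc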

How the data were processed

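The authors made DNase-seq libraries from 12 samples. Paired reads without adapters were mapped by BWA 0.7.12 to mm10, and hotspot2 (false discovery rate 0.05) called peaks in each library. The submitters' processing notes also name SAMtools 1.2. Each deposited list gives a position and a score per peak. The deposited score has no stated meaning, reached 150 in every list and was used only as a within-library percentile, ties sharing a rank. Depth is unknown, and p-values cover the spread between these libraries only.

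Promoters were scored from GENCODE M21 gene records. Tests were exact permutation tests over all divisions of the libraries (138600 for 5 groups, 924 for Delta1, 495 for DN2, the last 2 two-sided), adjusted by Benjamini-Hochberg over all promoters or DHSs with a peak in at least 2 libraries, at 0.05, in Python 3.11.15 and numpy 2.4.6. limma 3.58.1 in R 4.3.3 was an alternative. The tests were tried on simulated data. CpG ratios, motifs and sequences came from GRCm38. Coordinates are 1-based.

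Genes named were those that passed a test, those with a peak in every library of a group and none of another, and the 3 highest medians. Others are named for their place in a ligand and receptor pair or for passing at equal lengths. DHSs named were the 12 with the widest range of group means, at most 2 a gene. They were taken among DHSs with a peak in every library of some group and none of another. DHS302 was added, chosen after its values were seen. The members and lists were chosen with earlier results of these data known. The alternatives were equal list lengths, the upper 50% of each list, windows of 500 bp and 2.5 kb, all start sites, distances of 10 and 50 kb, merging at 50 bp, presence in place of percentile, no minimum number of libraries, limma and each library left out.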

Additional observations from a re-analysis of the deposited data

How the results depend on the processing

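The counts of superfamily promoters that passed depended on the processing. Over the 5 groups the 11 (23.1% of all promoters tested passing) became 6 at equal list lengths (9.35% of all), 3 with no minimum number of libraries (4.22%), 17 with limma (40.3%) and 0 with presence in place of percentile (0%). With no minimum number of libraries Tnfsf11, Cd27 and Ltbr passed, and the rest of the 11 did not. In the upper 50% of each list 8 passed (24.4% of all), without 6 of the 11 (Tnfsf4, Tnfsf13, Tnfsf13b, Tnfrsf8, Cd27 and Cd40). Leaving out 1 library gave 1 to 8: 7, 8 and 6 without each LSK library, 3 and 2 without each DN1, 1 and 1 without each DN2a, 4 and 2 without each DN2b and 1, 1 and 2 without each IgG (0.663% to 15.0% of all). For Delta1 culture the 3 (14.3% of all) became 1 at equal lengths (Tnfrsf1a, lower, 6.07%) and 0 with presence (0%), and 0 to 4 without 1 library (0% to 23.6%), with 0 without any Delta1-cultured library. For DN2 the 0 became 2 with limma (1.17%). The 8 promoters open in no library became 15 in the upper 50% of each list. That setting keeps fewer peaks in every list, and no share over all coding promoters stands beside the 15. It is therefore not read as a trait of the superfamily. For distal DHSs the 81 (23.1% of all distal DHSs tested) became 50 within 10 kb and 107 within 50 kb. The number of DHSs near the superfamily changes with the distance too, so these 2 counts have another denominator. The 81 became 63 at equal lengths (34.0%), 56 in the upper 50% (26.6%), 154 with limma (45.6%) and 0 with presence (0%). Without 1 library they became 19 to 72 (4.31% to 21.2%), with 19, 20 and 22 without each IgG library, 52 without DN1 replicate 1 and 46 and 49 without each DN2a library. Windows of 500 bp and 2.5 kb, all start sites and merging at 50 bp left each count within 1.5 times, but Tnf did not pass with the 2.5 kb window, Tnfsf13b with all start sites or Tnfrsf23 with limma. The cause of these changes was not tested. No paired analysis was possible because the labels give no number that ties libraries of different groups. Depth is unknown, and a missing peak in a short list may be one that was not called.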
